A study of Rattus norvegicus with 4 samples.

Results

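The 28 genes described here encode ubiquitin-conjugating enzymes, or E2s, and were chosen by name: every rat gene whose symbol starts with Ube2 and that had a probe on the array. They were 28 of 16581 named genes and were read by 39 of 45598 gene probes. The reference gene table lists 45 protein-coding Ube2 symbols, and those to which no probe was matched, Ube2d2, Ube2e1, Ube2l3 and Ube2o among them, were not analysed here. All samples were cells of NR8383, a macrophage line that came from the washed lung of a normal rat. Every culture had been given titanium dioxide particles of type NM105, which holds anatase and rutile crystals and is also called P25, at 3 cm2 of particle surface per cm2 of culture for 4 h. They form 1 group of 4 cultures, which the labels number 1 to 4 and call biological replicates. Per the labels, the cells had gone through 20 passages, were kept in 15% serum and were seeded 48 h before. The study's cultures without particles were not analysed here, so no value below is a response to the particles.

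A protein is tagged with ubiquitin in 3 steps. An activating enzyme (E1) charges ubiquitin and hands it to a cysteine of an E2, and a ligase (E3) brings the charged E2 to the substrate. Which E2 takes part helps to set what kind of chain is built and so whether the substrate is degraded, relocated or used as a signalling platform. In macrophages such chains carry signals from Toll-like and tumour necrosis factor receptors to NF-κB. Some E2s carry relatives of ubiquitin instead, namely SUMO, NEDD8 or ISG15.

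Each culture's RNA was read on 1 Cy3-labelled array, and all arrays lay on 1 slide. Levels below are the log2 of a gene's signal relative to a reference signal of the same array, with the SD over the 4 arrays (n = 4). They compare a gene with itself across arrays, and not a gene with another gene, because every probe has its own brightness. The arrays differed in overall signal, the reference running from 585 intensity units on replicate 2 to 1431 on replicate 1, with 10809 and 14407 probes well above background. A gene is called detected where its probe was flagged as well above background. Each of 10 macrophage markers was detected throughout. None of 5 epithelial, 5 T cell and 2 B cell markers was detected on any array, and of 5 fibroblast markers Col1a1 alone was, on 1 array. In bulk RNA, fewer cells of a type and less RNA per cell cannot be told apart.

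Most E2 genes were expressed at a level the arrays could measure. Detection on every array was met by 21 of the 28 members, while 4 were detected on 1 to 3 arrays and another 3 nowhere. Over all named genes the share on all 4 arrays was 35.2%, the share on 1 to 3 arrays 11.2% and the share on none 53.7%. By role, both mitotic E2s and all 3 DNA repair E2s were detected throughout, as were 4 of 5 E2s of ubiquitin-like modifiers, 4 of 6 linked to K48 chains or degradation at the endoplasmic reticulum, 4 of 5 of the Ube2d and Ube2e families and 2 of 3 of the K63 group. The 4 larger or less studied members split into 2 detected throughout and 2 nowhere. When a member only had to exceed the negative control spots' 99th percentile, 25 passed in place of 21. The share of all named genes under this looser rule was not worked out, so the 25 cannot be set against the 35.2%.

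**Figure D1:**
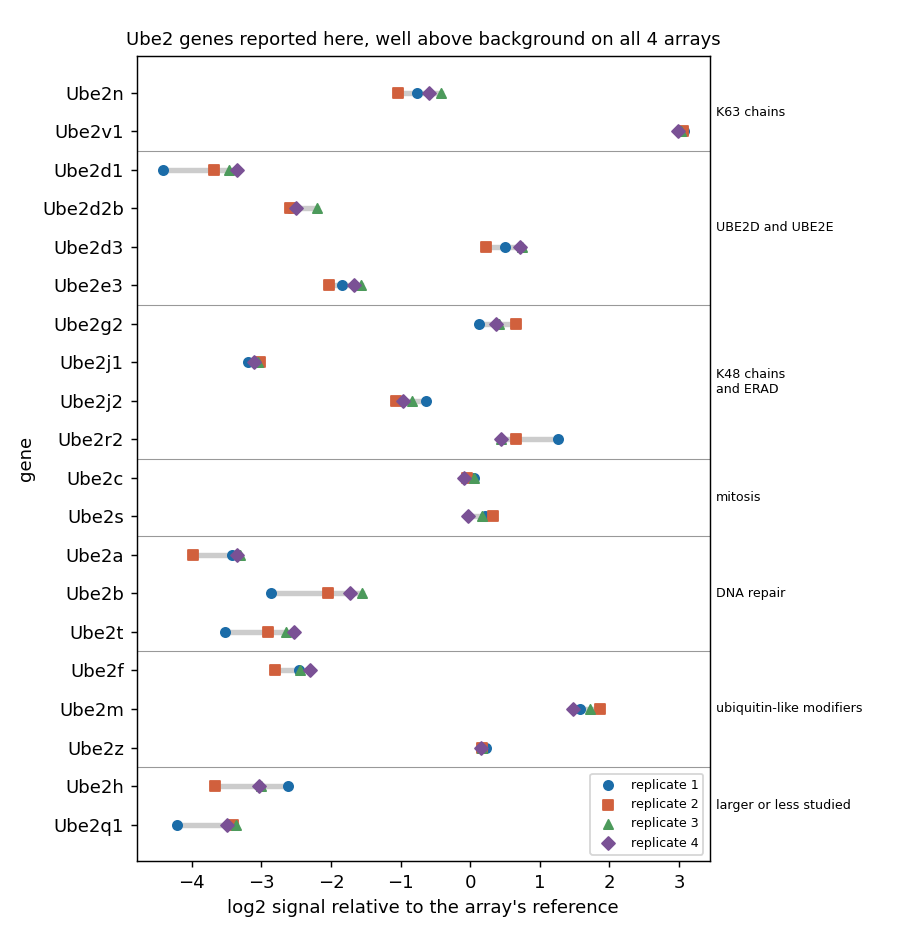
Level of the E2 genes reported here that were detected on all 4 arrays (x axis: log2 signal relative to the array's reference; 1 marker per array, grey bar from lowest to highest array), grouped by role. Ube2z and Ube2v1 hold their 4 markers within 0.08, while those of Ube2b spread over more than 1 unit.

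Ube2n, known as Ubc13, builds K63-linked chains and does so only with a partner, Ube2v1 or Ube2v2, that has the E2 fold without the catalytic cysteine. Ube2n was at −0.76, −1.04, −0.43 and −0.59 on replicates 1 to 4 (mean −0.71 ± 0.26). It was lowest on replicate 2, and its other bright probe ran in the same order, at −2.02, −2.10, −1.65 and −1.83. A further Ube2n probe was well above background on replicate 4 only. The partner Ube2v1 was, on this scale, among the steadiest genes measured, at 3.07, 3.06, 3.02 and 2.99 (SD 0.04), a lower SD than all but 0.77% of the 5824 named genes with a level. With other scalings its SD was 0.06 to 0.13, and after normexp correction 0.11. Its other probes did not share this steadiness. They lay at −2.17, −2.56, −2.71 and −2.97 (SD 0.34) and at −3.26, −3.76, −3.31 and −3.75 (SD 0.27), so the probes of Ube2v1 disagree on how far the arrays differ. Ube2v2, the partner used in tolerance of DNA damage, was well above background on replicate 1 only, with intensities of 20.1, 7.84, 11.1 and 15.1 at its brighter probe. That probe exceeded the negative controls' 99th percentile (5.62, 5.48, 5.07 and 5.96 on replicates 1 to 4) on every array, and the other probe on none.

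The Ube2d and Ube2e enzymes work with a large range of ligases and often place the first ubiquitin. Ube2d3 was printed at 10 spots per array and stood at 0.51, 0.23, 0.74 and 0.71 (mean 0.55 ± 0.24). Replicate 2 was lowest, and its 9 usable spots, from 0.14 to 0.34, did not overlap with the spots of replicates 3 and 4, which began at 0.64 and 0.63. On replicate 1 the spots ran from 0.09 to 0.75 and overlapped with all others. Ube2d1 was at −4.42, −3.68, −3.47 and −3.35 (SD 0.48), lowest on replicate 1, but its other probe put replicate 4 lowest, at −4.49, −4.52, −4.23 and −4.97. Averaging both Ube2d1 probes gave an SD of 0.25. Ube2d2b, a close relative of Ube2d2, was at −2.59, −2.59, −2.20 and −2.50, from a single probe, while its other probe was not well above background on any array. Ube2e3 ranged from −2.03 to −1.56 with its lowest value on replicate 2. Ube2e2 was not detected, with intensities of 4.59, 6.41, 3.81 and 3.81, of which that of replicate 2 alone exceeded the negative controls' 99th percentile. Members of these families are close in sequence, and whether a probe also binds a relative's RNA was not tested.

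Several E2s feed the proteasome by K48-linked chains or serve the disposal of misfolded proteins at the endoplasmic reticulum. Ube2g2, which works there with membrane ligases, was at 0.12, 0.66, 0.41 and 0.37 (SD 0.22), lowest on replicate 1 and highest on replicate 2. Its dimmer probe, at −3.53, −3.67, −3.89 and −3.72, was instead highest on replicate 1, so the probes disagree there. Ube2j1 and Ube2j2 are both anchored in the membrane of the endoplasmic reticulum. Ube2j1 was at −3.19, −3.02, −3.04 and −3.11, and its low SD of 0.08 depended on the scaling, being 0.13 to 0.15 under the other scalings and 0.19 after normexp correction. Ube2j2 ranged from −1.07 on replicate 2 to −0.64 on replicate 1. Ube2r2, a relative of Cdc34 that extends chains on cullin ligases, was at 1.26, 0.66, 0.44 and 0.44 (SD 0.39). Its value on replicate 1 lay above the other arrays by 0.75 on average. Ube2g1 and Ube2k, both makers of K48 chains, were detected on replicates 1, 3 and 4. Ube2g1 had intensities of 62.9, 17.0, 29.3 and 29.5, and the brighter Ube2k probe 40.4, 15.9, 29.6 and 25.2. For both, the value that missed the call was that of replicate 2, the array with the lowest overall signal, and it still lay 3.11-fold (Ube2g1) and 2.91-fold (Ube2k) above the negative controls' 99th percentile.

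The mitotic E2s act with the anaphase-promoting complex, a ligase that ends mitosis: Ube2c starts chains on its substrates and Ube2s extends them. Ube2c was at 0.05, −0.05, 0.05 and −0.10 (SD 0.07), and Ube2s at 0.21, 0.32, 0.17 and −0.04 (SD 0.15). Neither stood apart on any array, and the highest Ube2c array was 1.11-fold above the lowest. The other Ube2c probe, at −0.73, −0.94, −0.82 and −1.06, was likewise lowest on replicate 4. Genes of proliferation varied more between the same arrays: all 4 measured ones had an SD of 0.33 or more, and Mki67 was at −1.64 on replicate 1 and at −3.55, −3.26 and −3.15 on the others. The ligase parts Anapc11 and Anapc2 had SDs of 0.11 and 0.16, and its activator Cdc20, itself a gene of mitosis, 0.23. No test set the mitotic E2s against these genes.

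Ube2a and Ube2b are close relatives of yeast RAD6 and, with the ligase Rad18, tag PCNA at stalled replication forks. They differed in their course over the arrays. Ube2a was at −3.42, −3.99, −3.30 and −3.36 (SD 0.32), with replicate 2 low. Ube2b was at −2.86, −2.05, −1.56 and −1.72 (SD 0.58), with replicate 1 at −1.08 against the mean of the others. Ube2b had the highest SD of all 21 members and was the only member with an SD above 0.5, a mark passed by 5.60% of the named genes with a level. Ube2t, which works with Fancl to tag the Fanconi anaemia protein Fancd2, ran like Ube2b, at −3.52, −2.90, −2.65 and −2.53 (SD 0.44). Its ligase Fancl had an SD of 0.18, and Rad18 was detected on 1 array only.

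E2s that carry relatives of ubiquitin had a median SD of 0.14 over the 4 detected throughout, against 0.23 for all genes with a level. Ube2z, which takes ubiquitin and the related FAT10 from the E1 Uba6, was at 0.23, 0.17, 0.17 and 0.16, and its SD of 0.03 was the lowest among the members. The genes of both its partners, Uba6 and Ubd (FAT10), were not detected on any array. Ube2m and Ube2f load NEDD8 onto cullins, Ube2m with Rbx1 and Ube2f with Rnf7. Ube2m was at 1.58, 1.86, 1.72 and 1.48 (SD 0.16). Ube2f was at −2.46, −2.80, −2.44 and −2.30 (SD 0.21). Of their ligase partners, Rbx1 had an SD of 0.07, while Rnf7 was at −3.22 on replicate 1 and at −2.21, −2.02 and −2.21 on the others. Ube2l6, the E2 for the interferon-induced modifier ISG15, lay near the limit of detection, with intensities of 15.3, 18.6, 24.5 and 16.5, and was called on replicates 2 and 3. On the level scale it stood at −6.55, −4.97, −4.97 and −5.66. These levels set a signal near the floor against the array's reference, which was 1431 on replicate 1 and 585 on replicate 2. Ube2q2l, detected on no array, was likewise lowest on replicate 1, at −8.68 against −7.18, −7.59 and −7.35. How much of the course of Ube2l6 comes from the scaling was not tested. Isg15 and Usp18, which removes ISG15, were higher on the same replicates 2 and 3: Isg15 was at −3.39, −3.00, −3.00 and −3.31, and Usp18 at −4.18, −2.82, −2.99 and −4.25. This likeness was picked out after the values were seen.

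**Figure D2:**
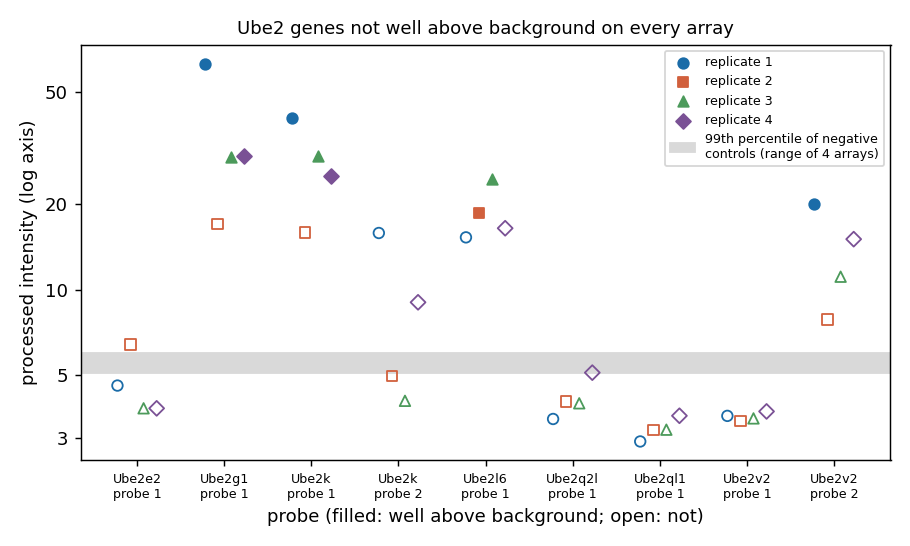
Processed intensity (log axis) of each probe of the 7 E2 genes that were not detected on all 4 arrays, 1 marker per array, filled where the probe was well above background. The grey band spans the 99th percentile of negative controls on the 4 arrays, 5.07 to 5.96, and Ube2q2l, Ube2ql1 and the first Ube2v2 probe have no marker above it.

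Among the remaining members, Ube2h, the E2 of the CTLH ligase complex, was at −2.62, −3.67, −3.01 and −3.04 (SD 0.44), highest on replicate 1 and lowest on replicate 2. Ube2q1 was at −4.21, −3.41, −3.37 and −3.49 (SD 0.40), low on replicate 1 only. Ube2q2l and Ube2ql1 were not detected, and none of their intensities exceeded 5.10.

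The next question was how far the E2 genes differed between the 4 cultures' arrays, differences that also hold extraction, labelling and hybridisation. The median SD of the 21 members was 0.21, against 0.23 for all 5824 named genes with a level, and 12 members lay below the median of all genes. The members spread widely: 6 lay below the 25th percentile of all SDs and 6 above the 75th. Dim probes varied more, for E2s as for other genes: the 9 members with a mean level under −2 had a median SD of 0.40 (0.27 for all 2835 such genes), and the 8 at 0 or above one of 0.16 (0.18 for 1407). The highest array was at least 2-fold above the lowest for 3 members (14.3%), Ube2b at 2.46-fold, Ube2d1 at 2.11-fold and Ube2h at 2.08-fold. Over all genes with a level, 8.96% reached 2-fold. Ube2t fell just short of it, and Ube2d1 reached 1.67-fold at its other probe and 1.53-fold with both probes averaged.

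**Figure D3:**
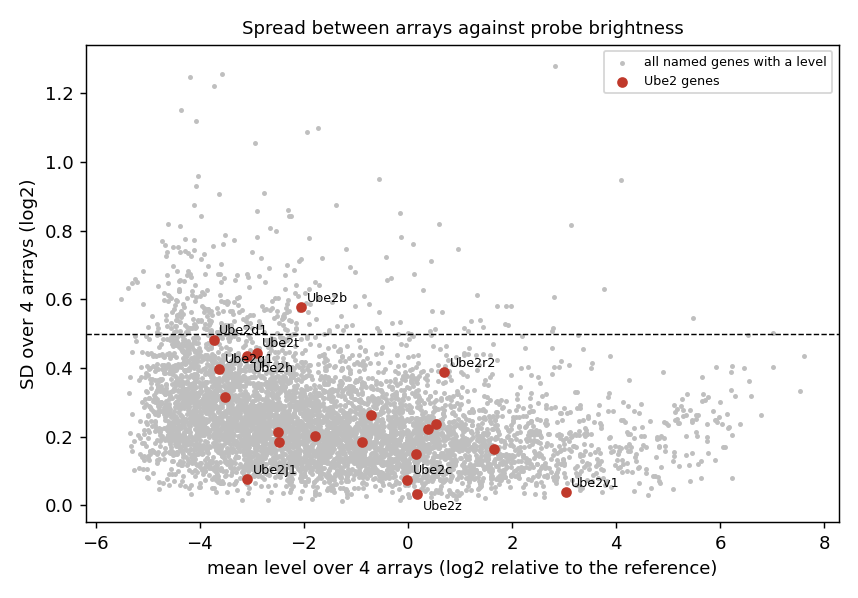
SD over the 4 arrays (y axis, log2) against the mean level (x axis, log2 relative to the reference) for the 5824 named genes with a level (grey) and the E2 genes reported here (red). Only Ube2b lies above the dashed line at 0.5, and Ube2z and Ube2v1 lie at the lower edge of the cloud.

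Of the 6 members with the highest SDs, all but Ube2h lay farthest from their mean on replicate 1, and Ube2h did so on replicate 2. On replicate 1 4 members lay at least 0.5 below the mean of the other arrays, with differences of −1.08 for Ube2b, −0.92 for Ube2d1, −0.79 for Ube2q1 and −0.83 for Ube2t. That is the case for 7.50% of all genes with a level. For Ube2d1 it rests on the brighter probe: the other stood at 0.08 against its other arrays, and the mean of both probes at −0.42, short of 0.5. A further 2 members, Ube2r2 and Ube2h, lay at least 0.5 above it, by 0.75 and 0.62, against 12.3% of all genes. Without replicate 1 the SD dropped to 0.25 for Ube2b, 0.17 for Ube2d1, 0.06 for Ube2q1, 0.19 for Ube2t and 0.13 for Ube2r2. For Ube2h it was 0.38 without replicate 1 and 0.23 without replicate 2. With the same probes, the direction on replicate 1 was kept for these 6 under the 3 other scalings and the normexp background correction, with ranges of −1.38 to −1.08 for Ube2b, −1.09 to −0.92 for Ube2d1, −0.94 to −0.79 for Ube2q1, −1.12 to −0.83 for Ube2t, 0.61 to 0.88 for Ube2r2 and 0.22 to 0.62 for Ube2h. The 6 were picked for a difference of at least 0.5 in these same data. Over these settings the median of all genes on replicate 1 against the others ran only from −0.11 to 0.08. A turn of direction was thus unlikely from the start. The probes of these 6 genes were each printed at 1 spot, so the arrays' own spot error is not known for them. Over 217 repeated probes with a level under −2, as 5 of the 6 have, the spots of a probe on replicate 1 had a median SD of 0.13 and a 95th percentile of 0.65. On replicates 2 to 4 the medians were 0.15, 0.11 and 0.11, and the 95th percentiles 0.42, 0.34 and 0.35. Ube2r2 is brighter, and for the 1377 repeated probes at −2 or above the replicate 1 values were 0.11 and 0.46. There the 95th percentiles on replicates 2 to 4 were 0.19, 0.15 and 0.18. Replicate 1 thus had the widest upper tail of spot error, and the part of this in the 6 genes' differences was not tested. Replicate 1 was the array with the highest overall signal, and on it the proliferation genes stood high, with a median deviation of 0.66 over 4 genes; the part of either in these differences was not tested. Over all 21 members the median deviation from the gene's own mean was −0.05, −0.04, 0.07 and 0.04 on replicates 1 to 4, against 0.06, −0.01, −0.01 and −0.01 over all genes with a level. The array farthest from a gene's mean was that of replicate 1 in 8 members (37.3% of all genes), of replicate 2 in 8 (33.5%), of replicate 3 in 2 (16.3%) and of replicate 4 in 3 (12.9%). The lowest array was number 1 in 6 members (25.0% of all genes), number 2 in 9 (32.2%), number 3 in 1 (22.2%) and number 4 in 5 (20.6%). The highest was number 1 in 5 members (37.8%), number 2 in 4 (28.0%), number 3 in 9 (19.1%) and number 4 in 3 (15.1%). These shares were not tested against each other.

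**Figure D4:**
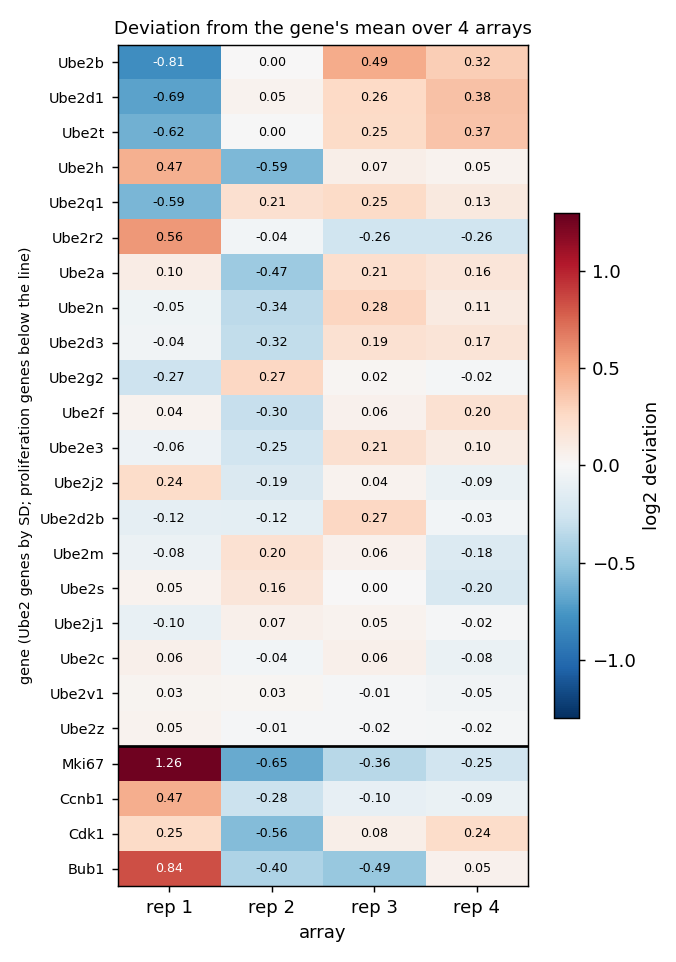
Deviation (log2, colour and number) of the E2 genes reported here from their own mean on each array, ordered by SD, with 4 proliferation genes below the line. Ube2b, Ube2d1, Ube2t and Ube2q1 are blue on replicate 1, where Mki67 and Bub1 are red, and Ube2c is near 0 on all 4 arrays.

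A test between the arrays was open to the 4 members whose probes were printed at several spots and detected throughout. It took the spots as replicates, which share the RNA of 1 culture, so its p-values concern arrays and not cultures. None of the 4 members was called by limma at an adjusted p under 0.05 with at least 2-fold between the highest and lowest array, against 4.25% of 871 named genes tested. At an unadjusted p under 0.05, the count was 0 with the fold minimum and 1 without it. That was Ube2d3, whose arrays differed by 1.43-fold between highest and lowest (limma moderated F, adjusted p = 1.45e-10), and 84.6% of tested genes passed without a fold minimum. Ube2c differed by 1.11-fold (limma adjusted p = 0.131) and Ube2s by 1.28-fold (limma adjusted p = 0.106). With 2 spots per array for both, a miss does not show that the arrays were alike.

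**Figure D5:**
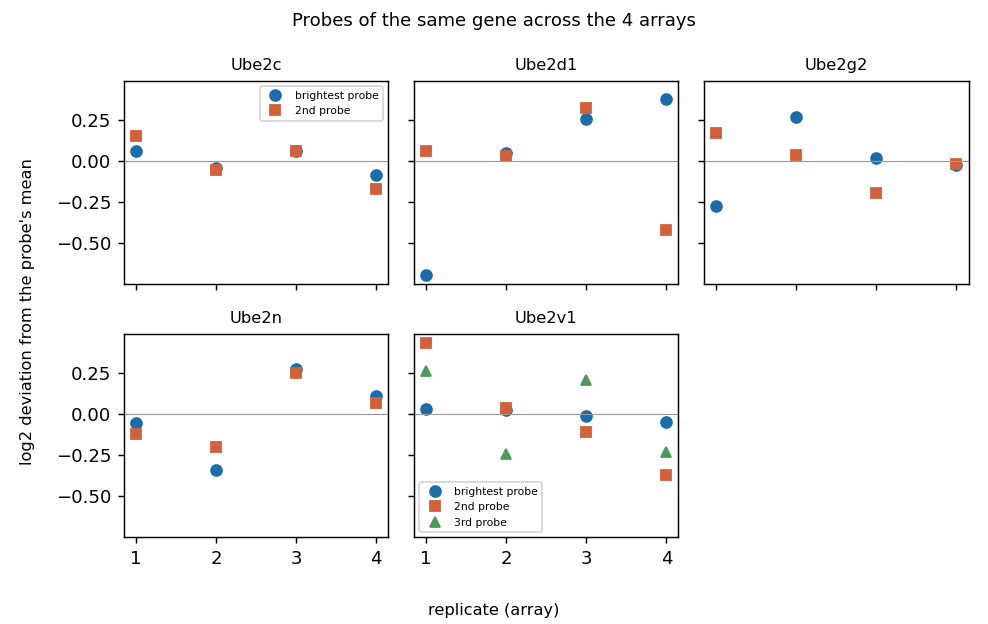
Deviation (y axis, log2) from the probe's own mean on replicates 1 to 4 (x axis) for E2 genes with several probes detected on all 4 arrays, 1 marker shape per probe. The probes run together for Ube2c and Ube2n, and apart for Ube2d1 on replicates 1 and 4 and for Ube2v1.

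Promoter sequences were looked up for the members that stood apart on replicate 1, to show what those low there share or do not share, with Ube2z as the steadiest member beside them. RefSeq promoter windows of 300 bases on the GRCr8 build were matched by symbol for 24 of the 28 members. Ube2r2, which also stood high on replicate 1, had no window, so Ube2h is the only member high there that is shown. Motifs of 6 kinds were searched on both strands: the GC box GGGCGG, the CCAAT box CCAAT, the cell cycle homology region TTTGAA, the ETS site CCGGAAG, the NRF1 site and the TATA box TATAAA. Capitals mark matches to any of them on either strand, and sequences run 5′ to 3′ along the gene.
Ube2b, chr10:36763894-36764193, minus strand: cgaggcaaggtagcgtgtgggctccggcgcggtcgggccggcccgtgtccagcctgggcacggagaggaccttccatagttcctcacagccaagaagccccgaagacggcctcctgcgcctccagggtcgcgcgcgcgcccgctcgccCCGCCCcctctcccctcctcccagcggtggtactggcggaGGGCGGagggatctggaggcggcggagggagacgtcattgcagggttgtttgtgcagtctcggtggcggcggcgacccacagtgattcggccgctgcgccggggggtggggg
Ube2d1, chr20:17308209-17308508, plus strand: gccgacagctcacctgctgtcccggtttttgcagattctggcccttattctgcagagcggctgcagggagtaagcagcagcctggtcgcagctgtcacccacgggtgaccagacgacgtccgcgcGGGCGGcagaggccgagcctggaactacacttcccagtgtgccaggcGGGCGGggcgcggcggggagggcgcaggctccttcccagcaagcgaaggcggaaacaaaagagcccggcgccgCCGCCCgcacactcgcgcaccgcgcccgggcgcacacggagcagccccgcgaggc
Ube2q1, chr2:177496310-177496609, plus strand: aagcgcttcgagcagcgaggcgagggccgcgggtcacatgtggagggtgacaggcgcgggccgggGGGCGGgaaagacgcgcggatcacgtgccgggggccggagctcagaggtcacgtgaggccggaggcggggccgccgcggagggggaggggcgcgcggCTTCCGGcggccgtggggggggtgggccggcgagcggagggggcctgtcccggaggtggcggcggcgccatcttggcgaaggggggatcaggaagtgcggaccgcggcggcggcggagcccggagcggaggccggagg
Ube2t, chr13:48954916-48955215, plus strand: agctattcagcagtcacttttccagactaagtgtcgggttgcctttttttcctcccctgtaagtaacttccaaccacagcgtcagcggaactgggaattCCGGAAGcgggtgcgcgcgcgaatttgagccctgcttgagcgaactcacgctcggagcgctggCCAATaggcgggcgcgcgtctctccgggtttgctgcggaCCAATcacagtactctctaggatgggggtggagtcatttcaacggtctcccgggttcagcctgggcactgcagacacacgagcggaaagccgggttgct
Ube2h, chr4:59897534-59897833, minus strand: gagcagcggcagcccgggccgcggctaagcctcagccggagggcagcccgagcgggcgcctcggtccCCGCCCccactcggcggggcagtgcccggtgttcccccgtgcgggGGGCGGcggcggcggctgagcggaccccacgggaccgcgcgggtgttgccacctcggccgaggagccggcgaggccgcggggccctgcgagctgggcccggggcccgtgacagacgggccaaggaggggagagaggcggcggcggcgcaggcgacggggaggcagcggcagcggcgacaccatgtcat
Ube2z, chr10:81513592-81513891, minus strand: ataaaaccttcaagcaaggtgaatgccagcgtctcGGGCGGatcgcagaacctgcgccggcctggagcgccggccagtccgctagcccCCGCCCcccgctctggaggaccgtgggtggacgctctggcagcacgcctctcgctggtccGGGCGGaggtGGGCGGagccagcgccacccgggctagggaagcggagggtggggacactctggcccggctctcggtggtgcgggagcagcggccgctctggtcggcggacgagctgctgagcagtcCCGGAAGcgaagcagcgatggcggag

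The 4 members low on replicate 1, Ube2d1 at its brighter probe only, held no motif in common. Ube2b and Ube2d1 held GC boxes alone, 2 and 3 of them, Ube2q1 a GC box and an ETS site, and Ube2t an ETS site and 2 CCAAT boxes without a GC box. Ube2h, high on replicate 1, had 2 GC boxes like Ube2b. Over the 24 members, 17 had a GC box (33.1% of all 33469 promoter windows, noncoding genes included), 8 an ETS site (8.75%), 7 a CCAAT box (37.5%), 2 the cell cycle homology region (18.3%), 2 a TATA box (14.2%) and 1, Ube2k, an NRF1 site (0.852%). The windows were rich in CpG: the members had a median of 32 CpG per window and all promoters one of 7. Ube2e3 had the most, 58. Ube2l6 had 10, and 1 of the 2 windows of Ube2e2 had 7. A match is a run of letters and not a shown binding site.

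The rest of the ubiquitin pathway was read from gene lists. Detection on every array was met by 5 of 6 measured E1 genes, Uba6 being detected nowhere. The main ubiquitin E1 gene Uba1 was at 2.23 ± 0.17, Uba2 of the SUMO E1 at −0.26 ± 0.30 and Uba3 of the NEDD8 E1 at −4.13 ± 0.49. Uba3 was highest on replicate 1, at −3.44 against −4.57, −4.22 and −4.29. Its E2 partners Ube2m and Ube2f were highest on replicates 2 and 4, and Ube2f, like Uba3, was lowest on replicate 2. The Uba3 probe was dim, and dim probes varied more. Of 11 genes for ubiquitin and its relatives, 10 were detected on every array, Ubd being the exception. The ubiquitin fusion gene Rps27a was at 5.76 ± 0.32, and Ufm1, which encodes a ubiquitin-like modifier, at −2.53 ± 0.35. The 7 E2-like genes under other symbols held 3 detected throughout, 2 detected in part and 2, Birc6 and Tsg101, that were not. Cdc34, an E2 of cullin ligases, was at 3.46 ± 0.26, the autophagy enzyme gene Atg3 at −2.99 ± 0.42 and Ufc1, the E2 for UFM1, at −1.70 ± 0.09.

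The 25 measured genes listed for ligases, their parts and their helpers held 13 detected throughout, 6 detected in part and 6 that were not. Among the last was Traf6, the ligase through which Ube2n and Ube2v1 serve Toll-like receptors. Rnf7 had an SD of 0.54, Arih1 of 0.44, Rnf31 of the linear chain complex of 0.41 and Xiap of 0.34. The 13 measured genes of the deubiquitinase list, whose enzymes remove ubiquitin or one of its relatives, held 10 detected throughout, 2 detected in part and Usp9x, which was not. Otub1, which also binds and blocks Ube2n, was at 0.33, 1.26, 0.78 and 0.77 (SD 0.38), low on replicate 1 and high on replicate 2. Usp18 had an SD of 0.76 and Brcc3 of 0.35. Bap1 was at −0.24 on replicate 1 and at 0.80, 0.79 and 0.77 on the others (SD 0.51). The median SDs of the lists ran from 0.17 for the E1 genes to 0.26 for the deubiquitinases, next to 0.21 for the E2 genes.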

How the data were processed

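RNA of 4 exposed NR8383 cultures was hybridised to 1 array each. The deposited files hold a processed intensity per spot from Agilent Feature Extraction 11.0.1.1, named in the submitters' processing notes, with background subtracted inside the array and no step across arrays, per the file headers. Other deposited columns are flags of 0 or 1, such as that for signal well above background. Control spots were left out, and so were outlier-flagged spots (486 to 723 gene spots per array, 2 of them on members). No gene spot was saturated. Repeated spots were averaged as log2 values. The scale of an array was its 75th percentile taken over probes detected throughout, because these were only 22.9% of all. Detection required the flag on more than 50% of a probe's spots, and a gene counted by any of its probes. A gene's level is that of its brightest probe detected throughout, which 5824 named genes had. Names came from RefSeq's GRCr8 gene table by unversioned accession, with 21109 of 45598 probes matched (46.3%). The headers name build rn4, so GRCr8 coordinates appear with the promoters alone. Precision is limited by signal over background and by the number of arrays.

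Arrays were compared with the moderated F of limma 3.58.1 (R 4.3.3), adjusted after Benjamini and Hochberg, over 1594 probes with 2 or more spots; a call needed an adjusted p under 0.05 and 2-fold. In simulated data for those probes and without the fold minimum, it called 95 of 100 that were shifted by 1 (log2), 99 of 100 shifted by 2 and 7 of 1394 left unshifted. With the 2-fold minimum these counts were 74, 99 and 0. The simulated arrays differed by spot error and the added shifts alone, so the counts do not cover other differences between real arrays. Other steps ran in Python 3.11.15 with pandas 2.3.3, numpy 2.4.6 and, for plots, matplotlib 3.10.9. The members, gene lists and tests were chosen with earlier results of these data known. Values on every array are given for the 8 highest and 8 lowest SDs, the first detected gene of each role, and the K63, mitosis, DNA repair and ubiquitin-like groups. From each gene list come its counts and up to 4 detected genes with the highest SD. The values of 1 member and of a few pathway genes are not reported here, though counts and medians include them. Other genes were named after their values were seen. Alternatives were normexp correction (offset 50, on median signals), quantile, median and all-probe scaling, the mean over probes, outlier spots kept, other detection rules, fold minima of 1.5 and none, no filter on dim probes, the part of the array as a block, and each replicate left out.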

Additional observations from a re-analysis of the deposited data

Results flagged for a closer look

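For each of the 21 E2 genes and 27 named genes of the lists, the gap between the most extreme array and its neighbour was divided by the range of the 4 arrays. Values above Dixon's 95% limit for 4 samples were singled out, which chance gives for about 1 in 20 genes not picked by their spread. The 27 were up to 4 genes per list with the highest SD in these same data, macrophage and proliferation markers included. For them that rate need not hold. Ube2q1 was low on replicate 1, with a ratio of 0.857 (−4.21 against −3.49 to −3.37). Rnf7 was low on replicate 1 too, with 0.840, as was Bap1, with 0.970.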

How the results depend on the processing

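Of 28 E2 genes, 21 were detected on all 4 arrays, and other detection rules gave 21 to 25. The median SD of 0.21 stayed between 0.155 and 0.238 under all alternatives. The count of members with an SD above 0.5 was 1, but 3 after normexp correction, 2 with quantile normalization, 2 with scaling to the median of detected probes and 3 with the 75th percentile over all probes; with a replicate left out it ran from 0 to 4. After normexp correction 9 of 21 members' SDs moved over 1.5 times, 6 downward (Ube2h to 0.18) and 3 upward. The cause was not tested. The median deviation of the members on replicate 1, −0.05, was −0.13 with scaling to the median of detected probes and −0.16 with the 75th percentile over all probes, and ran from −0.072 to 0.024 with a replicate left out. On replicate 2, at −0.04, it was 0.048 with the 75th percentile over all probes and ran from −0.14 to −0.028 with a replicate left out. The sign on replicate 1 turned without replicate 3, that on replicate 2 with the median and all-probe scalings, and that on replicate 4 (0.042) with the mean over probes (−0.018) and without replicate 1 (−0.0068). The median of all genes on replicate 1 against the others was 0.08, and −0.06 to 0.04 with the other scalings and −0.11 after normexp correction. No member of 4 was called between arrays by limma at 2-fold or 1.5-fold, and 1 was without a fold minimum. No paired analysis was possible because the samples form 1 group. Dim probes with 1 spot limit what can be said of Ube2d1, Ube2q1, Ube2h and Ube2t.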
